A study of Mus musculus with 12 samples.

Results

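The experiment compared the villus-depleted duodenum of mice lacking Cftr in the intestinal epithelium with the duodenum of mice with intact Cftr, and it was described across all measured genes. Its members were the 6 arrays titled as small intestine, 3 wild type and 3 mutant, of 12 arrays in all. The other 6 were distal colon of the same genotypes. RNA was labelled with biotin and read on Illumina mouse BeadChips, which report 1 brightness per probe.

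Wild-type arrays came from mice of the genotype Apc+/+ Cftr+/+ and mutant arrays from Apc+/+ Cftrfl/fl mice, both listed with Villin-Cre. All mice were C57BL/6, untreated as far as the labels say, and 3 months old. Villin drives the Cre recombinase in the epithelium of the gut, so the cells of the wall outside the epithelium keep Cftr. The growth protocol names Villin-Cre for the mutant mice only, and the design text words the mutants as deficient in Apc as well as Cftr. The genotype field was followed here. If Cre was present in mutants only, its own effect and that of Cftr loss cannot be told apart. The tissue was a piece of the middle of the duodenum, freed of villi and flash frozen. The cell type field says epithelium, whereas the design text says that stromal cells were kept. The arrays held both, with the enterocyte marker Vil1 between 12.79 and 13.05 and the smooth muscle marker Des between 10.99 and 11.12 on the deposited log2 scale, on which the background lies near 7.70. The design text speaks of replicates for each biological sample, and nothing ties an array to a named mouse, so the p-values reflect variation between arrays, some of which may be technical.

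Cftr is an apical channel for chloride and bicarbonate that drives fluid and alkaline secretion from the crypts and from Brunner's glands of the duodenum. Bicarbonate is needed for secreted mucins to unfold, and loss of Cftr in the gut is known for thick adherent mucus, changed microbial contact and poor fat absorption. Below the villi, the remaining mucosa holds crypts with stem, Paneth, goblet and enteroendocrine cells and the bases of the villi. Duodenal enterocytes also cleave and store dietary vitamin A as retinoids, and they carry a strong set of drug-metabolising enzymes.

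Cftr itself, the gene targeted in the mutant, comes first. Its probe read 8.28, 8.20 and 8.20 on wild type 1 to 3 and 8.12, 8.11 and 8.30 on mutant 1 to 3, a difference of -0.04 ± 0.08 (SE, limma adjusted p = 0.998). The highest of the 6 values was a mutant array and the groups overlapped. A second Cftr probe was above background on 0 arrays. The labels and files do not say whether either probe lies inside the deleted stretch, so this reading checks nothing about the genotype. Apc, named in the design text, was 7.97 ± 0.05 (SD, n = 3) in wild type and 8.0 ± 0.09 in mutant, near background in both.

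Of 15909 features tested, 108 passed at an adjusted p under 0.05 in limma, which is 0.679% of them. Of these, 27 were higher in the mutant (0.170%) and 81 lower (0.509%). The calls covered 89 named genes, of which 23 rose and 66 fell, and 19 features without a gene name. On the log2 scale, where 1 unit is a 2-fold difference, the median size of a call was 0.46 among rises and among falls. The sizes ran from 0.16 to 1.61 for rises and from 0.14 to 1.74 for falls, and features without a gene name held the upper end of each range. The median difference over all features was 0. In whole tissue, fewer cells of a type and less RNA per cell cannot be told apart.

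The 3 arrays of one genotype lay wholly apart from the 3 of the other for all 108 called features, and for 2148 of all features (13.5%). The calls rested on the spread of the joint fit, which also takes in the colon arrays, and on 2 wild-type arrays. With the small-intestinal arrays fitted alone, 3 features passed (0.0189%), namely Errfi1, Pgs1 and Dmbt1. Without wild type 1, 2 features passed, and without wild type 3 none did in limma, with 986 at an unadjusted p under 0.05 against 1299 with all arrays (8.17% of the features). Wild type 1 and wild type 3 were the closest pair, their values differing with an SD of 0.105 over features, against 0.169 to 0.228 for every other pair of small-intestinal arrays. Averaged as 1 sample, a choice made after seeing the data, they left 0 calls and 912 features at an unadjusted p under 0.05. Leaving out mutant 2 gave 49 rises, and leaving out 1 colon array at a time gave 12 to 25 rises and 41 to 53 falls. None of the 108 differences changed sign in these fits. The within-group SD of the called features had a median of 0.103 in small intestine and 0.049 in colon, and for 79 of the 108 it was larger in small intestine, where the same held for 45.6% of all features. Each SE given with a difference uses the joint spread, so for these 79 it draws on a smaller colon spread as well.

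**Figure D1:**
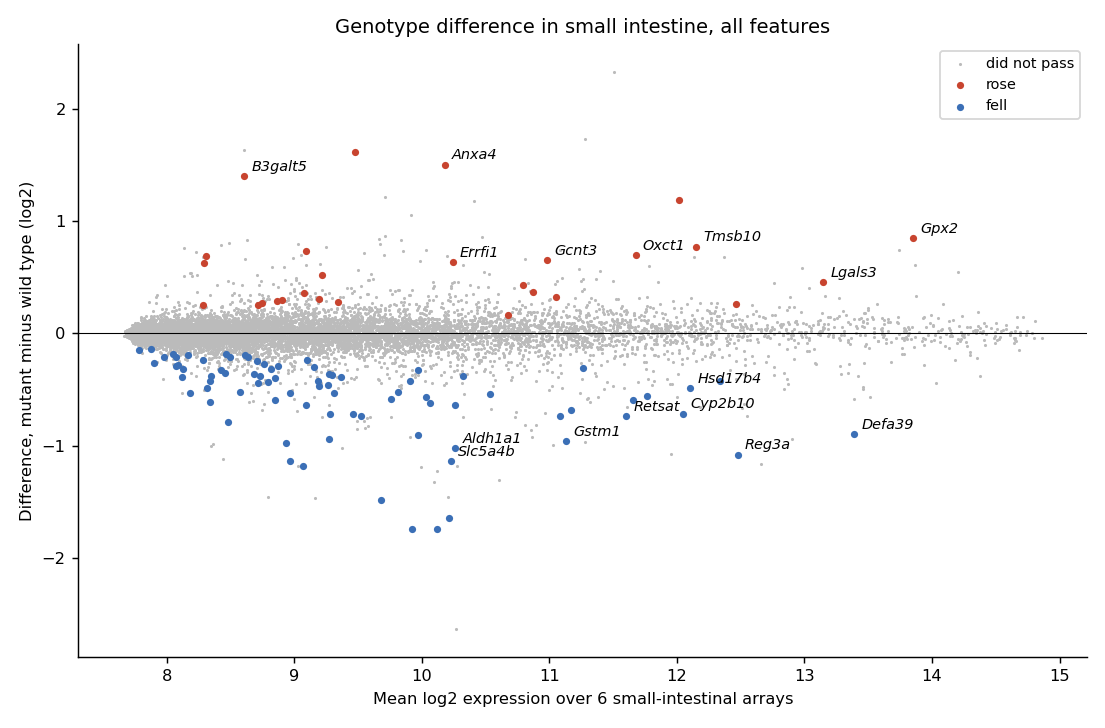
Each of the 15909 features as a point, with its mean log2 level over the 6 small-intestinal arrays on the horizontal axis and the mutant minus wild-type difference (log2) on the vertical axis. The 27 rises are red and the 81 falls blue, and grey points that did not pass reach further from 0 than the called ones, with Reg3g the highest at 2.33.

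Genes of vitamin A metabolism were among the largest falls. Aldh1a1, which oxidises retinaldehyde to retinoic acid, Rdh7, a retinol dehydrogenase, Retsat, which saturates retinol, Rbp7, a carrier of retinol, and Adh7, a retinol-oxidising alcohol dehydrogenase, all fell, as 5 of 30 measured genes of the retinoid list. None of the 30 rose, where 0.509% of all features fell and 0.170% rose. Of the 30 differences 22 were negative, against 49.9% over all features, and their median was -0.03. The proximal promoters of the 3 with the largest falls are printed here because these genes fell together. The windows run from 250 bases before to 50 after the start of transcription, 5′ to 3′ on the gene's strand, from RefSeq on GRCm38.p6: Aldh1a1 at chr19:20492333-20492632 on the plus strand, Retsat at chr6:72598352-72598651 on the plus strand and Rdh7 at chr10:127889198-127889497 on the minus strand. Capitals mark an AP-1 motif, TGANTCA, in Aldh1a1 and Retsat and a nuclear receptor half-site, AGGTCA, on either strand in Rdh7.
Aldh1a1: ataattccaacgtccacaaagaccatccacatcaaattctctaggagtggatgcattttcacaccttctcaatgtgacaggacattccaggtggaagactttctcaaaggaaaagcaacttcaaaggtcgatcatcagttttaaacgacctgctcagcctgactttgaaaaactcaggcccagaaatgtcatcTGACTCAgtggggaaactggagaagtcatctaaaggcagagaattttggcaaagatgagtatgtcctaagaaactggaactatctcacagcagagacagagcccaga
Retsat: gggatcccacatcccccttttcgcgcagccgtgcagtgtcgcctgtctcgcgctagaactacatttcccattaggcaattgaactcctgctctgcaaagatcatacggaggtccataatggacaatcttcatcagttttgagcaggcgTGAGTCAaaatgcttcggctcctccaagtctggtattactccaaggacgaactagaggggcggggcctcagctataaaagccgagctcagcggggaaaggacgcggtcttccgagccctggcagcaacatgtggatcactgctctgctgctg
Rdh7: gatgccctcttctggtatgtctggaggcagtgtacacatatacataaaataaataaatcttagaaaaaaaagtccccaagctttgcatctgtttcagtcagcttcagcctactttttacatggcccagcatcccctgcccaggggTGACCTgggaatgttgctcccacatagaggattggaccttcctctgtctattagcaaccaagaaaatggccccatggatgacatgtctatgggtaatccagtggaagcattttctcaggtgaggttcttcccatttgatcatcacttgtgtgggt

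Aldh1a1 read 10.81, 10.88 and 10.63 on wild type 1 to 3 and 9.53, 9.999 and 9.72 on mutant 1 to 3. Every mutant array lay below every wild-type array, and the gap between the nearest arrays was wider than either group's own range. The difference was -1.02 ± 0.12 (SE, limma adjusted p = 0.0117). Retsat was 11.90, 12.10 and 11.91 in wild type and 11.24, 11.36 and 11.11 in mutant, a difference of -0.74 ± 0.09 (limma adjusted p = 0.0117). Rdh7 was 11.56, 11.30 and 11.50 in wild type and 10.85, 10.89 and 10.41 in mutant, again without overlap, and fell by 0.74 (SE 0.11, limma adjusted p = 0.0211). For both of these genes, a second probe that was not used in the fit was also lower, by differences of -0.75 for Retsat and -0.88 for Rdh7.

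Rbp7 gave 10.17, 9.93 and 10.12 in wild type and 9.46, 9.59 and 9.61 in mutant, and fell by 0.52 (SE 0.06, limma adjusted p = 0.0117). In mice this carrier is also known from fat and endothelium, whose markers are described further on. Adh7 was lower on the scale, at 8.53 ± 0.09 (SD, n = 3) and 8.16 ± 0.12, and fell by 0.38. Aldh1a7, a close copy of Aldh1a1 outside the list, was 8.87, 9.06 and 8.87 in wild type and 8.51, 8.55 and 8.42 in mutant, and fell by 0.44. Because the copies are alike in sequence, the probes of Aldh1a1 and Aldh1a7 may share signal. Without wild type 1, without wild type 3 and with the small-intestinal arrays alone, Aldh1a1 had limma adjusted p-values of 0.0619, 0.0525 and 0.119, with differences between -1.09 and -1.003.

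Some enzymes that modify drugs and other foreign compounds fell in each of the classes listed. Of 24 measured cytochromes P450 of the xenobiotic families, 3 fell and 20 differences were negative, with a median of -0.21. Of 25 glutathione transferases 3 fell and 19 were negative, with a median of -0.14. Of 27 glucuronosyltransferases, sulfotransferases and carboxylesterases 3 fell and 22 were negative, with a median of -0.19. None of these genes rose. Over all features 0.509% fell, 0.170% rose and 49.9% of the differences were negative.

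Cyp2b10, the P450 best known as a target of the receptor CAR, was 12.40, 12.42 and 12.40 in wild type and 12.02, 11.55 and 11.51 in mutant. The wild-type arrays were nearly equal, and mutant 1 lay between them and the other mutant arrays. The difference was -0.71 ± 0.11 (limma adjusted p = 0.0202). The within-group SD of Cyp2b10 was 0.20 in small intestine and 0.01 in colon, where it was at background. Its relative Cyp2b23 was 9.77, 9.90 and 9.79 in wild type and 9.38, 8.98 and 8.95 in mutant, with the same order of mutant arrays, and fell by 0.72. Cyp2j9 fell from 8.31 ± 0.05 to 7.92 ± 0.10, close to background. Cyp4v3, an omega hydroxylase of fatty acids outside the list, was 12.05, 12.06 and 12.01 in wild type and 11.61, 11.48 and 11.36 in mutant, and fell by 0.56 (SE 0.07, limma adjusted p = 0.0117).

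Gstm1, a mu-class glutathione transferase, was 11.46, 11.99 and 11.37 in wild type and 10.46, 10.97 and 10.50 in mutant. Array 2 was the highest of each genotype, and the groups did not overlap. The difference was -0.96 ± 0.17 (limma adjusted p = 0.0383). Gstm2 fell by 0.59 and Gstm4 by 0.53. The mu-class genes lie in a cluster of near-identical copies, so which copies carried the fall is uncertain. A second Gstm1 probe differed by -0.05 with overlapping groups. It read 7.81 to 7.95, near background, so it could hardly show a fall. The 2 further Gstm2 probes differed by -0.62 and -0.45.

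Ugt2b36, a glucuronosyltransferase, was 9.94, 9.80 and 9.95 in wild type and 9.05, 9.22 and 9.19 in mutant. Both groups were tight and lay well apart, and the difference was -0.74 ± 0.09 (limma adjusted p = 0.0117). A second Ugt2b36 probe differed by -0.71. The carboxylesterases Ces2g and Ces2e fell by 0.64 and 0.42, and they too belong to a family of close copies. Nat8f1, of the N-acetyltransferase 8 family, was 9.02, 9.24 and 9.17 in wild type and 8.43, 8.64 and 8.59 in mutant, and fell by 0.59 (SE 0.08, limma adjusted p = 0.0161).

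Of 37 measured genes of fatty acid oxidation and targets of the PPAR receptors 4 fell and none rose. Over all features 0.509% fell and 0.170% rose. Of the 37 differences 28 were negative, against 49.9% over all features, and their median was -0.13. Bbox1, which makes carnitine, was 9.47, 9.91 and 9.53 in wild type and 8.82, 8.93 and 9.02 in mutant, and fell by 0.72 (SE 0.10, limma adjusted p = 0.0153). Hsd17b4, a peroxisomal enzyme of beta-oxidation, was 12.28, 12.38 and 12.40 in wild type and 11.88, 11.87 and 11.84 in mutant. Its mutant arrays were almost equal, and the difference was -0.49 ± 0.08 (limma adjusted p = 0.0239). Acot1 and Acot12, which cleave acyl-CoA, fell by 0.64 and 0.42. A second Acot1 probe, near background at 7.80 to 7.98, differed by -0.11.

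Other falls included Maob, a mitochondrial monoamine oxidase, which was 10.50, 10.22 and 10.41 in wild type and 9.85, 9.90 and 9.51 in mutant, and fell by 0.62 (SE 0.10, limma adjusted p = 0.0289). Dao, a peroxisomal oxidase of D-amino acids, fell by 0.52, and Agmat, which hydrolyses agmatine, by 0.53. Catalase, the peroxisomal enzyme that removes hydrogen peroxide, read 9.49, 9.38 and 9.41 for its gene Cat in wild type and 9.04, 9.001 and 8.84 in mutant. No arrays of Cat overlapped, and it fell by 0.47 (SE 0.06, limma adjusted p = 0.013). Tmem86b, a lysoplasmalogenase, and its relative Tmem86a fell by 0.42 and 0.68.

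The selenium enzyme Gpx2, the glutathione peroxidase of the gut epithelium, went the other way. It was 13.43, 13.51 and 13.33 in wild type and 14.18, 14.41 and 14.23 in mutant, near the top of the scale. Each mutant array lay above each wild-type array by more than the range of either group, and Gpx2 rose by 0.85 (SE 0.12, limma adjusted p = 0.0202). In the list of glutathione peroxidases and Nrf2 antioxidant genes, Gpx2 was the 1 gene of 34 measured that rose and Cat the 1 that fell. The list median was -0.02, and 0.679% of all features were called.

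The largest named rise was Anxa4, a calcium-dependent membrane-binding annexin found in secretory epithelia. It was 9.55, 9.25 and 9.49 in wild type and 10.87, 10.76 and 11.17 in mutant. The nearest arrays of the 2 genotypes were more than 1 unit apart, and the difference was 1.5 ± 0.28 (limma adjusted p = 0.0477). A second Anxa4 probe differed by -0.11, so the rise holds for 1 probe of the gene. Lgals3, a galectin of the apical transport route, was 12.91, 12.90 and 12.94 in wild type and 13.28, 13.43 and 13.41 in mutant, and rose by 0.46 (SE 0.06, limma adjusted p = 0.0143). Tmsb10, an actin-binding thymosin, was 11.70, 11.82 and 11.77 in wild type and 12.79, 12.20 and 12.61 in mutant, and rose by 0.77. Its 2 further probes differed by 0.23 and 0.56. These were the 3 calls among 30 measured annexins, galectins, S100 proteins and thymosins, with a median of 0.03 over the list. Calls made up 0.679% of all features.

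Enzymes that build the sugar chains of mucins held 3 rises and no fall among 40 measured, with a list median of 0.03. Of all features 0.170% rose and 0.509% fell. B3galt5, which adds galactose to core chains, was 7.89, 7.90 and 7.92 in wild type, near background, and 9.96, 8.79 and 9.17 in mutant. The mutant arrays were all well above the wild-type arrays but spread over more than 1 unit, and the difference was 1.40 ± 0.23 (limma adjusted p = 0.0289). Gcnt3, which branches mucin chains, was 10.54, 10.85 and 10.58 in wild type and 11.32, 11.36 and 11.25 in mutant, and rose by 0.65. Chst4, which adds sulfate to N-acetylglucosamine, rose from 8.96 ± 0.13 to 9.48 ± 0.08, and a second probe of it differed by 0.28.

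The mucins and other goblet cell products were not called, with 0 of 30 passing in limma. At an unadjusted p under 0.05, as 8.17% of all features, stood 6 of them, 5 of these higher. Muc2, the main gel-forming mucin, was 13.45, 13.36 and 13.35 in wild type and 13.74, 13.54 and 13.56 in mutant, a difference of 0.22 ± 0.05 (limma adjusted p = 0.108). The groups of Muc2 did not overlap. The mean over 15 goblet cell markers was 10.16, 10.20 and 10.16 in wild type and 10.44, 10.44 and 10.36 in mutant, without overlap. Of the 15 differences 14 were positive, against 50.1% over all features, and their median was 0.07. The largest was that of Retnlb, at 1.64, which did not pass. The part of goblet cell number in the glycan transferase rises was not tested.

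Errfi1, a feedback inhibitor of the EGF receptor, was 9.89, 9.95 and 9.93 in wild type and 10.53, 10.55 and 10.60 in mutant, and rose by 0.63 (SE 0.08, limma adjusted p = 0.0117). Its groups were tight and well apart, and of the 108 calls it was the 1 that also passed with the small-intestinal arrays alone (limma adjusted p = 0.0174). Mxd1, a Myc antagonist of differentiating cells, was 10.83, 10.88 and 10.71 in wild type and 10.28, 10.17 and 10.34 in mutant, and fell by 0.54. A second Mxd1 probe, dimmer at 7.94 to 8.35, differed by 0.10, in the opposite direction. The list of EGF receptor and MAP kinase feedback genes, as drawn up, also holds the Myc antagonist Mxd1. Errfi1 and Mxd1 were its 2 calls among 21 measured genes, where 0.679% of all features were called. Of the 21 differences 12 were negative, against 49.9% over all features, with a median of -0.004. At an unadjusted p under 0.05, as 8.17% of all features, 4 were higher and 2 lower. The list mean was 8.56 on every wild-type array and 8.76, 8.62 and 8.59 on mutant 1 to 3.

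The promoters of Gpx2 and Errfi1 are shown because each holds the same half-site, AGGTCA on either strand, in capitals. In Errfi1 it lies after the start of transcription. The Gpx2 window is chr12:76795505-76795804 on the minus strand and the Errfi1 window chr4:150853546-150853845 on the plus strand, from RefSeq on GRCm38.p6, with the same limits as above.
Gpx2: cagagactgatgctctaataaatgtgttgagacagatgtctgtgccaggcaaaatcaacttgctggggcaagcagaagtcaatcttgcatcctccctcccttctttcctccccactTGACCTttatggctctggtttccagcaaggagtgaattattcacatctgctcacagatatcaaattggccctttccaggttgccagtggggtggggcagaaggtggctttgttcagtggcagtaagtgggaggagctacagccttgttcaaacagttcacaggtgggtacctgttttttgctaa
Errfi1: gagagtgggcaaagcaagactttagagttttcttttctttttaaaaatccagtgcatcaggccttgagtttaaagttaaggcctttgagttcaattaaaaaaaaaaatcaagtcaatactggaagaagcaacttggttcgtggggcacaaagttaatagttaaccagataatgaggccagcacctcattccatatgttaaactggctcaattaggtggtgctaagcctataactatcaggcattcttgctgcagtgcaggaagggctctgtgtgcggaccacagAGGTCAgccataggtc

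Windows were found for 20 of the 23 genes that rose and for 56 of the 66 that fell. Where RefSeq gave more than 1 window for a gene, as for Aldh1a1, Rdh7 and Errfi1, only the first was used. AGGTCA stood in 5 of the 20 (25%) and 11 of the 56 (19.6%), against 16% of 27025 promoters in the table. TGANTCA stood in 2 of the 20 and 5 of the 56 (8.9%), against 7.9% in the table. The core of the antioxidant response element, TGACNNNGC, stood in 4 of the 20 and 4 of the 56 (7.1%), against 12.5%. Both strands were read. These are matches of letters in a window and were not set against any binding data.

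Other rises included Oxct1, which lets cells burn ketone bodies. It was 11.37, 11.36 and 11.25 in wild type and 12.13, 11.97 and 11.97 in mutant, and rose by 0.70 (SE 0.11, limma adjusted p = 0.0289). A second Oxct1 probe differed by 0.85. Mpi, which feeds mannose into sugar chain synthesis, was 10.94, 10.85 and 10.89 in wild type and 11.20, 11.21 and 11.24 in mutant. Its groups were tight and apart, and it rose by 0.32 (SE 0.03, limma adjusted p = 0.0108). Mboat1, an acyltransferase of lysophospholipids, went from 7.98 ± 0.06 to 8.61 ± 0.19. H2-D1, a class I histocompatibility chain with close copies in the genome, rose by 0.26, and the folate enzyme Aldh1l1 by 0.31. The others were Smap2, Pdxdc1, Trabd, Ttc39a, Fam107b, Ankfy1, Ampd3, Abhd2, Zdhhc3 and Cyb561, with rises from 0.16 to 0.43.

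**Figure D2:**
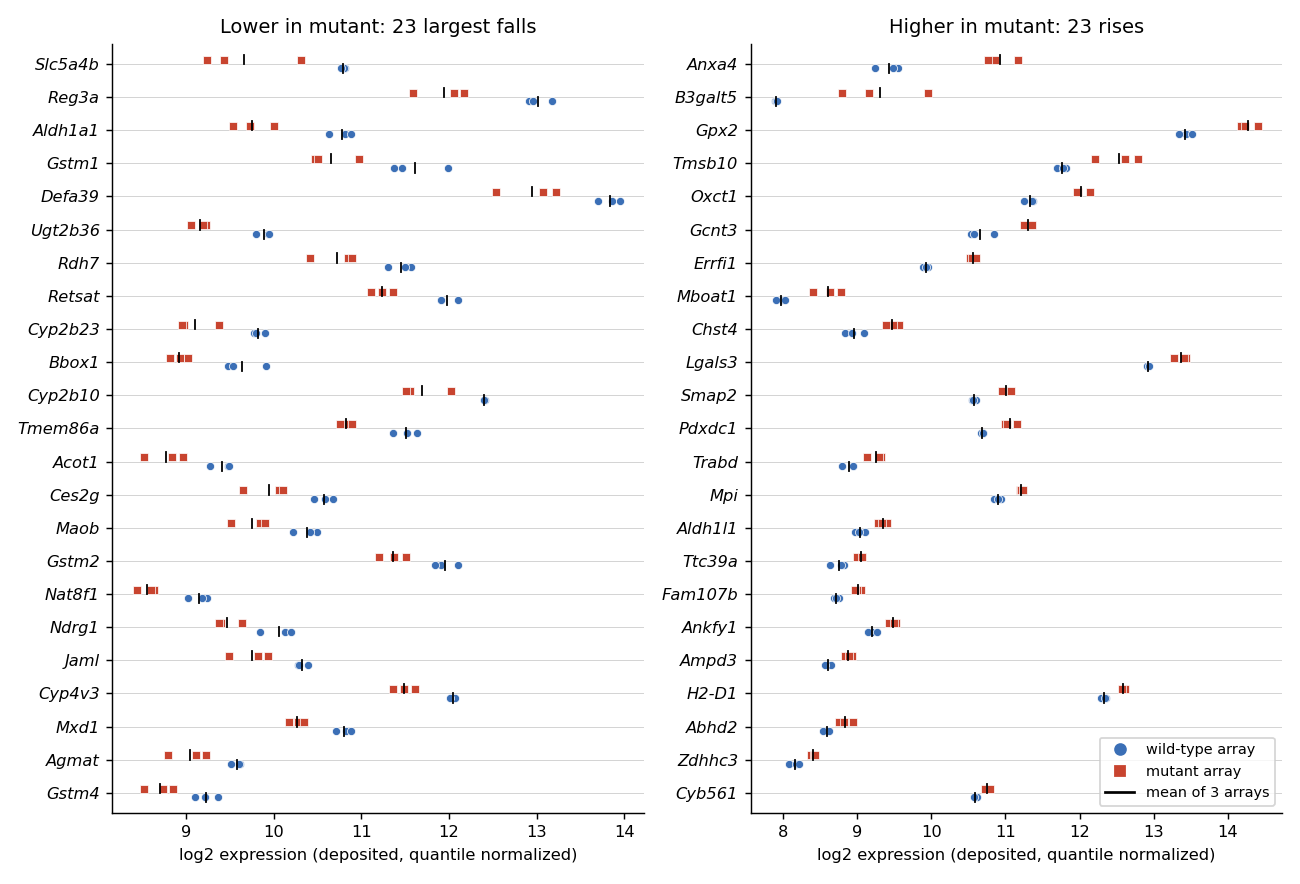
The 23 named genes that rose and the 23 largest named falls, with 1 point per small-intestinal array on the deposited log2 scale and a bar at the mean of 3 arrays. The genotypes stand apart in every line, and Slc5a4b and B3galt5 show the widest spread among mutant arrays.

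Of the Paneth and antimicrobial genes 2 fell and none rose. Reg3a, a secreted antibacterial lectin, was 13.17, 12.91 and 12.96 in wild type and 12.06, 12.17 and 11.59 in mutant, and fell by 1.08 (SE 0.13, limma adjusted p = 0.0117). Defa39, an alpha-defensin of Paneth cells, was 13.86, 13.70 and 13.95 in wild type and 12.54, 13.07 and 13.22 in mutant, and fell by 0.90. The mouse alpha-defensins are near-identical copies, and the copies that a probe reads are uncertain. These were the 2 calls among 27 measured Paneth and antimicrobial genes, of which 16 differences were positive, with a median of 0.02. Calls made up 0.679% of all features. Among 10 Paneth cell markers none passed in limma, 1 had an unadjusted p under 0.05, and the mean was 12.29, 11.91 and 12.23 in wild type and 11.84, 12.06 and 11.96 in mutant, with overlap. The Paneth markers with the smallest p were the defensins Defa23 and Defa21, which differed by -1.08 and -0.27 (limma adjusted p = 0.0748 and 0.796).

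Reg3g, another lectin of the same family, had the largest difference of any named gene and was picked out after its values were seen. It was 10.55, 10.02 and 10.45 in wild type and 12.84, 11.90 and 13.27 in mutant. All mutant arrays lay above all wild-type arrays, but they spread over more than 1 unit, and the difference of 2.33 ± 0.68 did not pass (limma adjusted p = 0.258). Retnlb, a goblet cell product, was near background in wild type, at 7.79 ± 0.02 with 2 of 3 arrays above the limit, and 9.37, 9.81 and 9.10 in mutant, and it did not pass either (limma adjusted p = 0.224). Dmbt1 and Pgs1 were picked out after their values were seen. Dmbt1, a mucosal glycoprotein that binds bacteria, was 13.53, 13.60 and 13.55 in wild type and 14.19, 14.10 and 14.22 in mutant. It passed with the small-intestinal arrays alone (limma adjusted p = 0.0441) and not in the joint fit (adjusted p = 0.172). Pgs1, a mitochondrial enzyme of cardiolipin synthesis, did the same with a difference of 0.43, with adjusted p-values of 0.0174 alone and 0.0547 in the joint fit.

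The lists of nutrient uptake genes gave 3 calls, all falls, where 0.679% of all features were called. Slc5a4b, a member of the sodium-glucose transporter family, was 10.82, 10.80 and 10.77 in wild type and 9.24, 10.31 and 9.43 in mutant. Mutant 2 stood closer to the wild-type arrays than to the other mutants, and the difference was -1.14 ± 0.21 (limma adjusted p = 0.0463). The within-group SD of Slc5a4b was 0.40 in small intestine and 0.04 in colon, where it was at background. With the small-intestinal arrays alone its limma adjusted p was 0.33. Slc5a11, an inositol transporter of that family, fell by 0.37. They were the 2 calls among 25 measured sugar, amino acid and peptide transporters, of which 17 differences were positive. Treh, the brush border enzyme that cleaves trehalose, was 12.53, 12.56 and 12.58 in wild type and 12.07, 12.30 and 12.01 in mutant, and fell by 0.43. It was the 1 call among 20 brush border enzymes, with a median of -0.12, and among 22 enterocyte markers, with a median of -0.03. At an unadjusted p under 0.05, as 8.17% of all features, 6 of the 20 were lower and 0 higher. Among the 22, 5 were lower and 1 higher. The brush border mean was 10.95, 11.06 and 10.96 in wild type and 10.91, 10.86 and 10.89 in mutant, without overlap. The enterocyte means overlapped. Cubn, a receptor for cobalamin bound to intrinsic factor, lies outside these lists and is named because of its level. It passed as lower, but it was not above background on any of the 3 mutant arrays, where it was at least 1.05-fold lower.

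The list built around Cftr itself, of channels, exchangers and regulators of epithelial ion transport, gave no call. Of 41 measured genes 0 passed in limma, 7 had an unadjusted p under 0.05, 3 of them higher and 4 lower, where 8.17% of all features did, and the median was 0.01. Pdzk1, a scaffold that binds Cftr and brush border exchangers, was 12.36, 12.81 and 12.34 in wild type and 11.98, 11.67 and 11.92 in mutant. The groups did not overlap, and the difference of -0.65 ± 0.15 missed the threshold (limma adjusted p = 0.119). Slc9a3r2, another scaffold of these transporters, differed by -0.29.

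Cholesterol synthesis genes leaned one way without a call. Of 19 measured genes 17 were higher in the mutant, against 50.1% of all features, with a median of 0.17. At an unadjusted p under 0.05 stood 7, against 8.17% of all features, but none passed in limma. Hsd17b7, an enzyme of the later steps, was 9.90, 9.80 and 9.87 in wild type and 10.15, 10.41 and 10.37 in mutant, a difference of 0.45 ± 0.09 (limma adjusted p = 0.062), and Mvd, of the mevalonate steps, differed by 0.35. Of 21 immediate early genes 18 were higher, against the same 50.1%, with a median of 0.13. In limma 0 passed, and 2 stood at an unadjusted p under 0.05, against the same 8.17%. Fos was 9.37, 9.68 and 9.41 in wild type and 9.88, 10.26 and 10.52 in mutant, apart but wide (limma adjusted p = 0.287), and Zfp36, which destabilises cytokine messages, differed by 0.38.

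The remaining pathway lists had 0 calls in limma. At an unadjusted p under 0.05, as 8.17% of all features, stood 8 of 31 genes of lipid absorption and apolipoproteins, 3 of 14 of iron handling and 5 of 17 of tight junctions. The same held for 0 of 20 proliferation genes, 2 of 20 of the Wnt pathway, 1 of 21 nuclear receptors, 4 of 22 interferon genes and 1 of 19 genes of endoplasmic reticulum folding. Their medians lay between -0.02 and 0.08. All 5 of the tight junction genes were higher, and of the 8 lipid genes 6 were lower and 2 higher. The tight junction mean was 9.21 to 9.23 in wild type and 9.30 to 9.44 in mutant. The lipid absorption mean was 10.68 to 10.69 in wild type and 10.53 to 10.64 in mutant. The means of the other lists of this paragraph overlapped. Slc40a1, the iron exporter, was 9.77, 10.64 and 9.72 in wild type and 11.23, 11.06 and 10.43 in mutant. Wild type 2 lay above mutant 3, so its groups overlapped, and its difference of 0.86 did not pass (limma adjusted p = 0.298). The iron carrier Trf differed by -0.60, the apolipoprotein Apoc3 by -0.47, and the claudins Cldn2 and Cldn15 of the tight junction by 0.45 and 0.21. The replication gene Mcm2 differed by -0.09 and the cyclin Ccne1 by -0.07, the Wnt genes Sp5 and Dkk3 by -0.31 and -0.29, and Arnt and Esrrg of the nuclear receptor list by 0.14 and -0.08. The interferon genes Ifit3 and Ifi35 differed by -0.44 and 0.17, and Herpud1 and Trib3, of endoplasmic reticulum stress, by -0.21 and -0.20. None of these passed, and they are the genes with the smallest p in their lists.

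**Figure D3:**
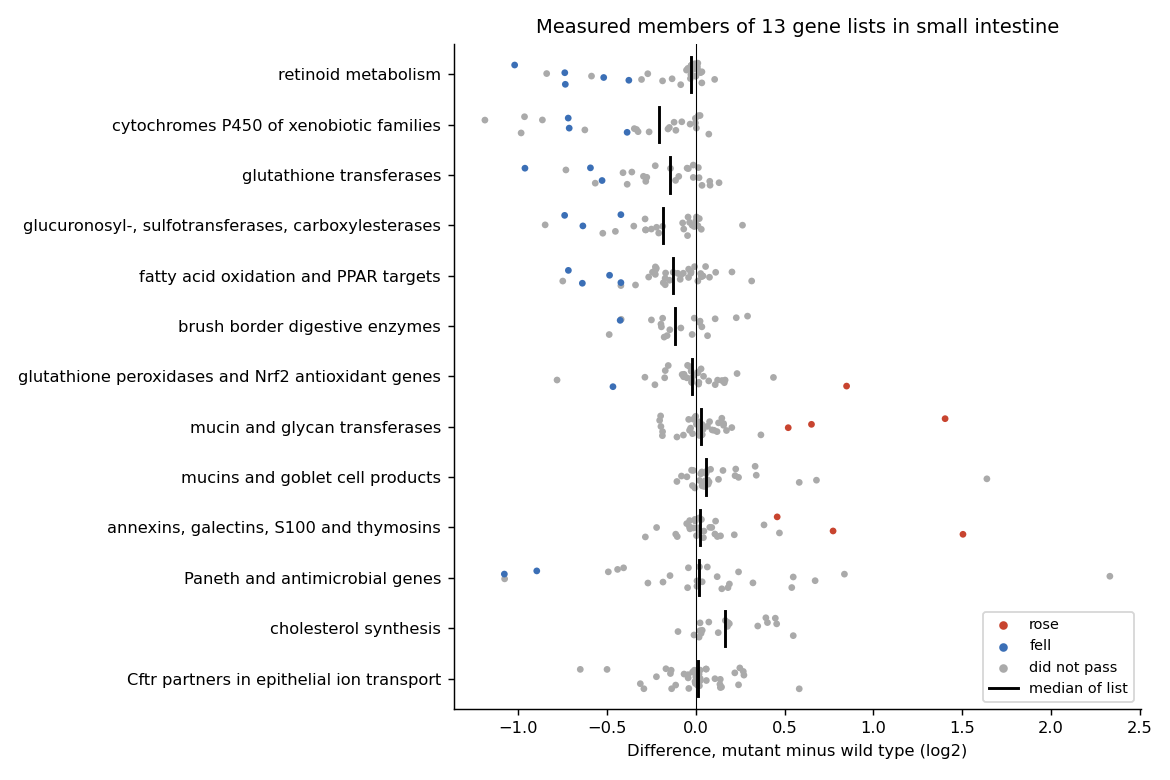
The mutant minus wild-type difference (log2) of each measured gene in 13 gene lists, with rises red, falls blue, other genes grey and the list median as a bar. The enzymes of drug metabolism and fatty acid oxidation lie mostly below 0, with medians from -0.21 to -0.13, and cholesterol synthesis mostly above, with a median of 0.17.

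Markers of other cells in the wall differed between arrays and partly with genotype. The mean of 23 pancreatic acinar markers was 8.72, 11.22 and 8.71 in wild type and 9.95, 11.09 and 8.58 in mutant. Wild type 2 and mutants 1 and 2 thus held far more acinar RNA than the other 3 arrays, whichever the genotype, and none of the 23 passed or had an unadjusted p under 0.05. Those with the smallest p, Clps and Pnliprp2, differed by -0.67 and -0.70. Most of the list went the other way, with 18 of the 23 differences positive and 5 negative. Their median was 0.35, and 50.1% of all features had a positive difference. With the acinar mean as a covariate 37 features rose and 98 fell. Leaving out those 3 arrays keeps mutant 3 as the only mutant array, against wild type 1 and 3, so its spread is assumed to be like that of the other groups. That fit gave 73 higher and 246 lower features, 62 of the 108 calls among them, and has no replicate check in the mutant.

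The mean of 9 adipocyte markers was 8.86, 8.37 and 8.75 in wild type and 8.17, 8.14 and 8.33 in mutant, without overlap. Plin4, a lipid droplet coat protein of fat, was the 1 of the 9 that passed, against 0.679% of all features. It fell by 0.49 (limma adjusted p = 0.0468). Adiponectin, the product of fat cells, was picked out after its values were seen, and its gene Adipoq read 9.39, 8.32 and 9.27 in wild type and 7.76, 7.72 and 8.17 in mutant. Only mutant 3 was above background among the mutant arrays, and Adipoq did not pass (limma adjusted p = 0.0816). Scd1, of fat synthesis, and Lpl, of fat uptake and picked out in the same way as Adipoq, differed by -1.46 and -1.18 without passing. In all 4 of these genes wild type 2 was the lowest wild-type array. The part of fat attached to the wall in the falls of Rbp7 and of the fatty acid oxidation genes was not tested.

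The endothelial mean was 8.61, 8.47 and 8.62 in wild type and 8.42, 8.44 and 8.48 in mutant, with 15 of 17 differences negative, and the macrophage mean 8.85, 8.72 and 8.86 against 8.75, 8.63 and 8.62, with 8 of 9 negative. Over all features 49.9% of the differences were negative. Neither list had a call in limma, though 8 and 4 genes had an unadjusted p under 0.05, where 8.17% of all features did. Of the 8 endothelial genes 7 were lower and 1 higher, and all 4 macrophage genes were lower. Erythrocyte markers ran from 8.86 to 9.87 in wild type and from 8.98 to 9.32 in mutant. Gkn3, the 1 call among 7 Brunner gland markers, fell by 0.24. Of these 7 differences 4 were positive, with a median of 0.03. At an unadjusted p under 0.05, 1 was higher and 2 lower. Dmbt1, described above, is also in this list and differed by 0.61 without passing in the joint fit. Prg2, an eosinophil granule protein and the 1 call among 6 mast cell and granulocyte markers, fell by 0.35. Of all features 0.679% were called. In limma none passed among 18 stem cell, 16 enteroendocrine, 9 tuft cell, 14 smooth muscle, 14 fibroblast, 7 neuronal and glial, 9 T cell, 8 B and plasma cell and 4 erythrocyte markers. At an unadjusted p under 0.05, against the same 8.17%, were 5 of the stem cell markers, all of them lower. The same held for 2 of smooth muscle, 1 each of tuft, fibroblast and B and plasma cells, and 0 of the others. The stem cell mean was 8.94, 8.95 and 8.97 in wild type and 8.86, 8.83 and 8.90 in mutant, without overlap, and 13 of the 18 differences were negative. The mast cell and granulocyte mean was also lower on all mutant arrays, at 7.95 to 8.04 against 8.05 to 8.07. The other lists of this paragraph overlapped in their means.

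The markers with the smallest p in each list without a call did not pass either. Slc14a1 and Ascl2 of the stem cell list differed by -0.13 and -0.12, with a limma adjusted p of 0.063 for Slc14a1. Plvap and Vwf of endothelium differed by -0.33 and -0.18, Ms4a7 and C1qb of macrophages by -0.37 and -0.29, and the globins Hba-a1 and Hbb-bt by -0.74 and -0.71. The hormone genes Gcg and Ghrl differed by -0.22 and -0.13, Ltc4s and Avil of tuft cells by -0.24 and -0.09, Tpm2 and Myl9 of smooth muscle by -0.22 and -0.11, and Col6a2 and Dpt of fibroblasts by -0.21 and -0.18. Vip and Ret of neurons and glia differed by 0.30 and 0.05, Itgae and Ccl5 of T cells by -0.16 and -0.07, and Cd22 and Ms4a1 of B cells by -0.14 and 0.02.

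**Figure D4:**
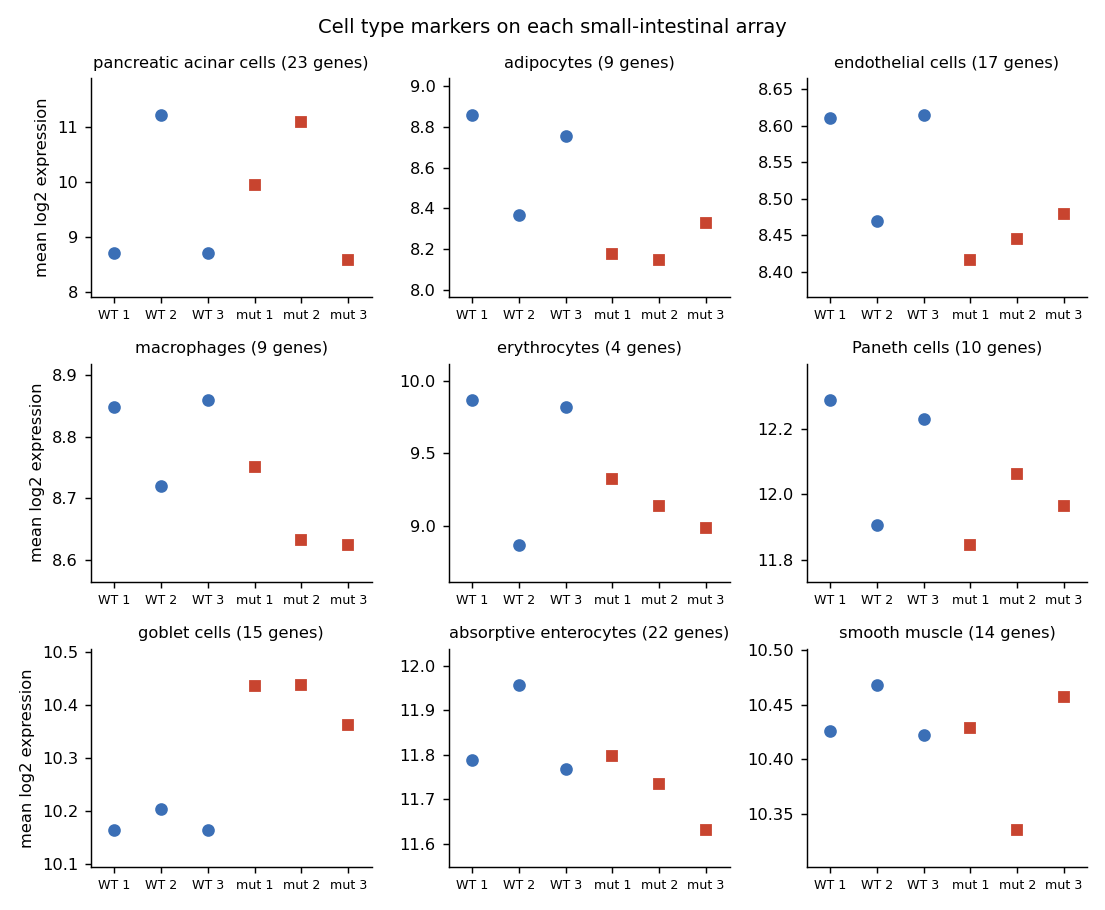
The mean log2 level of the measured markers of 9 cell types on each small-intestinal array. Acinar markers split the arrays across genotypes, with wild type 2 at 11.22 and mutant 2 at 11.09, while goblet cell means are higher and adipocyte means lower on all 3 mutant arrays.

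The remaining named falls included Ndrg1, a differentiation and stress gene, by 0.58, with a second probe at -0.68. Jaml, an adhesion molecule of leukocytes, was 10.28, 10.39 and 10.28 in wild type and 9.93, 9.82 and 9.49 in mutant, and fell by 0.57. Tinag, a basement membrane protein, fell by 0.46, and Paqr7, a membrane progestin receptor, by 0.43. The other 31 named falls were between 0.14 and 0.40. Of the 89 called genes, 35 had 48 other probes above background on at least 3 small-intestinal arrays. Of those probes 43 differed in the same direction as the fitted one and 5 in the opposite one. The same direction with no overlap held for 26, where 13.5% of all features had no overlap in either direction. These probes were read on the same arrays as the fitted ones, so they are not further samples.

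In the colon epithelium of the same genotypes, 0 features (0%) passed in limma at the same threshold, with 812 at an unadjusted p under 0.05. The colon differences of the called features had a median of 0.05 for rises and -0.01 for falls, and they ranged from -0.22 to 0.71, the highest being Anxa4. The difference between the effects of the 2 tissues gave 0 calls (0%), a smallest limma adjusted p of 0.185 and 944 features at an unadjusted p under 0.05. With all arrays, none of the duodenal changes was therefore shown to differ from the colon. This count depended on the arrays used, with 36 features passing without wild type 2, 20 without mutant 1, 13 without mutant 2, 8 without mutant 3 and 5 without colon mutant 1. Of the called features 38 were above background on fewer than 3 colon arrays, where a difference could not be read.

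**Figure D5:**
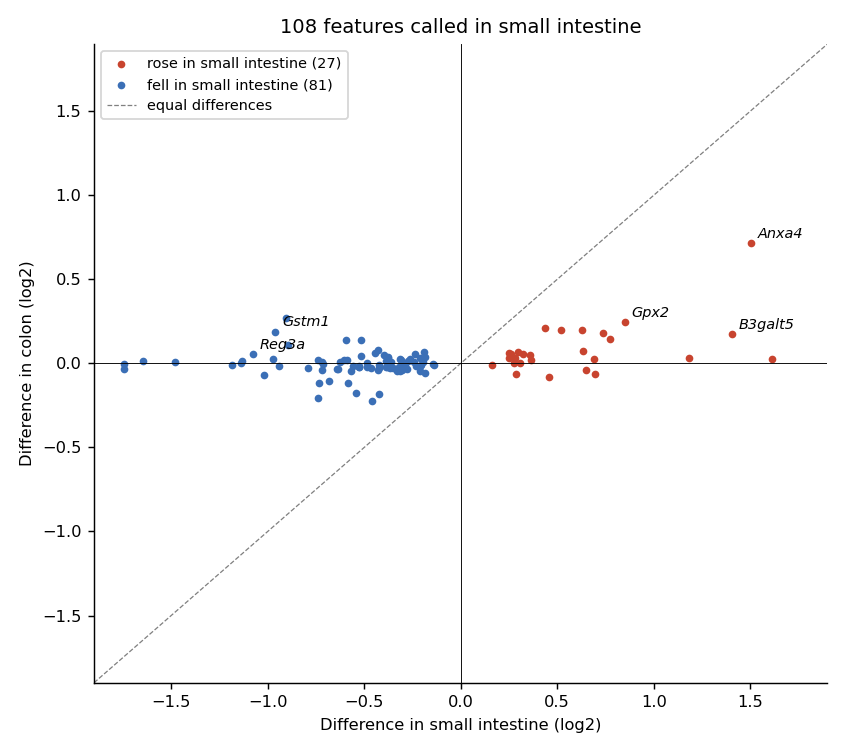
The mutant minus wild-type difference (log2) of the 108 called features in small intestine on the horizontal axis and in colon on the vertical axis, with a dashed line where both would be equal. The colon values lie mostly near 0, and Anxa4 has the highest, at 0.71.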

How the data were processed

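Expression was measured on Illumina mouse BeadChips. The authors deposited log2 values that are nearly identical in distribution over the 12 arrays, as quantile normalization leaves them, with column medians from 7.75603 to 7.75663. The submitters' processing notes name limma, with no version number, and the sources used here state no background correction. The log2 values end in a floor near 7.70, so differences of dim probes are understated. The 24 columns of a further table match no sample's labels and were not used.

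A probe counted as above background over 7.78, the mode of all values plus 3 SD of the values below it, mirrored (SD 0.0278). On each small-intestinal array 42.9% to 43.0% of probes did so. The 22737 of 45281 probes that passed this limit on at least 3 arrays entered the fit, and the brightest stood for its gene, giving 15909 features, of which 12132 were genes. The platform annotation gives 1 symbol for 34885 probes, several for 18 and none for 10378, and 34807 symbols were checked by Entrez number.

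A mean per group was fitted to all 12 arrays with limma 3.58.1 in R 4.3.3 (8 residual degrees of freedom plus 2.15 from the prior). P-values are two-sided and adjusted by Benjamini-Hochberg over all features, with a threshold of 0.05. The smallest p that exact permutation of 3 against 3 arrays allows is 0.1, and the number of arrays limits the precision. The fit was tested on simulated data.

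The arrays and the 42 gene lists, 24 of pathways and 18 of cell types, were chosen with earlier results of these data known. Named are Cftr and Apc, every rise and the 35 largest falls among named calls, every called list member, and for lists without a call the 1 or 2 genes with the smallest p. Others are said to be chosen after their values were seen. The other settings tried changed the limit, the probe choice, the variance prior, array weights, blocks, normalization within tissue, the acinar signal and each array left out. Promoters came from RefSeq (GRCm38.p6); probe coordinates were not used.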

Additional observations from a re-analysis of the deposited data

How the results depend on the processing

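The signs of the 108 calls held under all 26 alternatives wherever a call was measured (70 of 108 with the limit passed on 3 arrays of each tissue), but the counts did not. Features called higher and lower were 27 and 81 with all arrays. Without a filter on dim probes they were 21 and 57, and with the limit passed on 3 arrays of each tissue 18 and 32. With the small-intestinal arrays alone they were 3 and 0. Array weights gave 49 and 130, and the acinar covariate 37 and 98. Without the 3 arrays highest in pancreatic markers 73 and 246 were called, but only mutant 3 then stands for the mutant, against wild type 1 and 3, and it is assumed to vary like the other groups. The replicate block gave 17 and 40, with 52 of the 108 kept. The deviations of same-numbered wild-type and mutant arrays correlated by 0.05, 0.37 and 0.33, and 5 of the 6 arrays correlated best with their own number, a hint from the data and not the design, so the numbers were not taken to pair the samples. Leaving out 1 array at a time gave 0 to 49 higher and 0 to 111 lower. Averaging wild type 1 and 3, added after seeing the data, left 0 and 0. The difference between tissues, 0 calls with all arrays, had 1 with a trended and robust prior, 22 with the acinar covariate and 0 to 36 when 1 array was left out, and 213 without the 3 acinar-rich arrays, again with mutant 3 as the lone mutant duodenal array. The height of the signal over background limits what can be read in dim genes. Of 63 called genes followed through the 27 settings, the fewest calls were 7 and the most 24, and 11 were called in at least 23, namely Aldh1a1, Aldh1a7, Cat, Cyp4v3, Errfi1, Mpi, Mxd1, Rbp7, Reg3a, Retsat and Ugt2b36. Cyp2b10, Cyp2b23, Bbox1 and Tmem86b, all at background in colon, were measured in only 26 settings and called in 22. Some genes that were not called changed sign. Without the acinar-rich arrays Herpud1 differed by 0.0745 and Cftr by 0.0642. With 1 array left out Ccl5 ran from -0.198 to 0.0162 (without mutant 2), Avil from -0.231 to 0.0268 and Apc from -0.0137 to 0.0769, the sign of the last pair turning without mutant 3. Among named genes 630 values lost and 38 gained the threshold, of which the cause was not tested. A random block of genotype and number (correlation 0.043) and quantile normalization within each tissue both left 27 and 81.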

Other observations

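Further large differences did not pass, in genes not named above that were chosen after their values were seen. Car3, a carbonic anhydrase of fat and muscle, was 9.25, 8.15 and 9.14 in wild type and 7.70, 7.74 and 8.10 in mutant, a difference of -0.999 ± 0.23 (limma adjusted p = 0.13). Cyp2e1, a P450 that is also strong in fat and liver, was 9.23, 8.37 and 8.97 in wild type and 7.70, 7.72 and 8.19 in mutant (limma adjusted p = 0.0547). Both were lowest on wild type 2 among the wild-type arrays and highest on mutant 3 among the mutants, the order also seen for Adipoq. Cyp2c55 was 10.50, 10.77 and 10.49 in wild type and 10.34, 9.55 and 8.31 in mutant, where the 3 mutant arrays spread over 2 units (limma adjusted p = 0.38). Ly6m was 9.29, 8.74 and 9.28 in wild type and 11.06, 9.85 and 10.05 in mutant, apart but wide (limma adjusted p = 0.376).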
